A study of Drosophila melanogaster with 24 samples.

Results

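The genes described here are the Acp and Sfp genes of Drosophila melanogaster, named for the accessory gland proteins and seminal fluid proteins that they encode. They were chosen by symbol alone: every gene present in both count tables whose symbol is Acp or Sfp followed by a digit, which gave 46 of 16727 genes, 19 of them Acp and 27 Sfp. The symbol rule also took in Acp1 and Acp65Aa, whose full names are adult cuticle proteins, so 44 of the 46 carry a seminal fluid name. Gene expression was measured by RNA sequencing in 24 libraries of w1118 adults, aged 5 to 7 days by the labels, 3 for each of 8 groups: HFD male bodies, RD male bodies, HFD male heads, RD male heads, HFD female bodies, RD female bodies, HFD female heads and RD female heads. HFD was a food with 20% coconut oil and RD was the regular food without it. Bodies were sequenced without the head, as pools of 10 by the labels, and head libraries held about 100 heads each. All flies, RD controls included, carried the white mutation of the w1118 strain, and no other allele or agent was named. A body library pools whole bodies, so fewer gland cells and less RNA per gland cell cannot be told apart in any value below.

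Seminal fluid of the fly is made mainly in the paired accessory glands of the male, with further products from the ejaculatory duct and bulb. Its proteins pass to the female at mating, where they act on ovulation, egg laying, feeding, receptivity and the storage of sperm. Among the genes described here, Acp26Aa encodes ovulin, which raises ovulation, Acp36DE encodes a large glycoprotein needed for sperm storage, Acp29AB encodes a lectin that acts in sperm retention, Acp62F encodes a protease inhibitor and Acp76A a serpin. The Sfp genes were named after proteins found to be transferred to females in the ejaculate, and the function of most of them is not known. Sex peptide, the best known seminal protein of the fly, stands in the tables as SP and is therefore not among the 46.

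All 46 genes matched 1 protein-coding gene each in the dm6 annotation. They were not spread evenly over the chromosome arms: 23 lay on 2L (50%, against 19.0% of all protein-coding genes), 9 on 3L, 8 on 2R and 6 on 3R, and none on the X chromosome, which holds 15.7% of protein-coding genes. Of the 46, 13 lay in 4 groups of neighbours no more than 5000 bases apart. Sfp24Ba, Sfp24Bb and Sfp24Bc lay side by side on the minus strand of 2L, from 3667977 to 3670581, within an intron of Drgx. Acp26Ab and Acp26Aa were separated by 21 bases on the minus strand of 2L, from 5892298 to 5893896. Sfp33A4, Sfp33A2 and Sfp33A3 lay on the plus strand of 2L, from 11837243 to 11840329, within an intron of Pde1c. The fourth group held 5 genes on 2R: Sfp53D, Acp53C14a, Acp53C14b, Acp53Ea and Acp53C14c. In all, 13 of the 46 lay within an intron of another gene, 12 of them on the strand opposite to it, and Sfp87B lay in an intron of svp on the same strand.

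A further limit was shared sequence: 3 genes had exon bases in common with a gene on the other strand, and 1 of these was not measurable. Acp95EF had 0 counts in all 24 libraries, and all 243 of its exonic bases were shared with Spase22-23, a signal peptidase subunit gene that had 3350, 1889 and 2274 counts in HFD male bodies and 3717, 2762 and 3377 counts in RD male bodies. Over the whole table, 65 of the 79 genes with every exonic base shared with the other strand had 0 counts in all libraries (82.3%), against 304 of 8647 genes with no such shared base (3.52%). The zero of Acp95EF is therefore not read as absence of its transcript. Sfp78E shared 134 of 829 bases with CG11248, and Sfp84E shared 27 of 685 bases with Os-C, a gene of the antenna.

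Total counts on genes were 13373820 to 25703778 per library, with the highest total in male body HFD library 2 and the lowest in male body HFD library 3. Markers placed the libraries with their labels: the summed level of 20 testis genes was 10578 to 13559 CPM (counts scaled to 1 fixed library total) in male bodies and 97.8 to 124 CPM in female bodies, and that of 10 photoreceptor genes was 46721 to 77110 CPM in heads. In male bodies the photoreceptor sum was 105 to 436 CPM in 5 libraries and 2506 CPM in RD library 3. Replicates of a group differed by more than sampling noise, with a chi-square per gene of at least 6.58 between any pair, where sampling noise alone gives about 1. Whether they came from separate pools of flies cannot be told from these values. The lowest value was that of HFD male body libraries 3 and 4, and every other pair was at 13.2 or more. HFD male body library 2 was at 167 and 151 against those 2 libraries.

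Levels among genes are given as TPM, in which counts are divided by gene length and then scaled to a fixed total. In male bodies the 46 genes took 1.22%, 1.94% and 1.94% of all gene counts in HFD libraries 2, 3 and 4, against 1.93%, 1.46% and 1.58% in RD libraries 1, 2 and 3. The 95% Wilson intervals, which cover counting error only, were far narrower than the spread between libraries (1.217% to 1.226% for HFD library 2). The share averaged 1.70% ± 0.415 in HFD bodies and 1.66% ± 0.245 in RD bodies (SD, n = 3 each), with ranges that overlapped and a difference of 0.0417 percentage points (exact permutation test, two-sided, p = 0.8, where the smallest p this design allows is 0.1). By TPM the same genes made up 5.02% ± 1.24 in HFD bodies and 4.86% ± 0.649 in RD bodies (SD, n = 3 each).

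A few genes carried most of this signal. Sfp87B, Sfp60F and Acp36DE together held 48.8% of the counts on the 46 genes in HFD male bodies and 49.1% in RD male bodies. Sfp87B, a seminal protein of unknown function, had 8007, 13562 and 12374 TPM in HFD bodies and 12843, 9243 and 10796 TPM in RD bodies. Sfp60F had 7208, 13413 and 13448 TPM in HFD bodies and 10927, 8380 and 10170 TPM in RD bodies. For both genes the lowest of the 6 values was in HFD library 2 and the HFD range enclosed the RD range.

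By mean TPM on RD, the next in order after Sfp87B and Sfp60F were Acp33A, Sfp24Bb, Acp53Ea, Acp53C14b, Acp24A4, Acp98AB, Acp53C14a, Acp36DE, Acp62F and Acp26Aa. Acp33A averaged 3623 ± 1052 TPM in HFD bodies and 3208 ± 325 TPM in RD bodies. Acp36DE averaged 1163 ± 169 TPM in HFD bodies and 1489 ± 294 TPM in RD bodies, and ovulin (Acp26Aa) 802 ± 124 TPM in HFD bodies and 922 ± 189 TPM in RD bodies (SD, n = 3 each). Sfp87B and Sfp60F differed by less than their SDs on RD, as did Sfp24Bb and Acp53Ea and the neighbours in the run from Acp53C14b to Acp53C14a. On each diet 11 genes exceeded 1000 TPM by group mean, while the median of the 46 was 309 TPM in HFD bodies and 311 TPM in RD bodies.

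**Figure D1:**
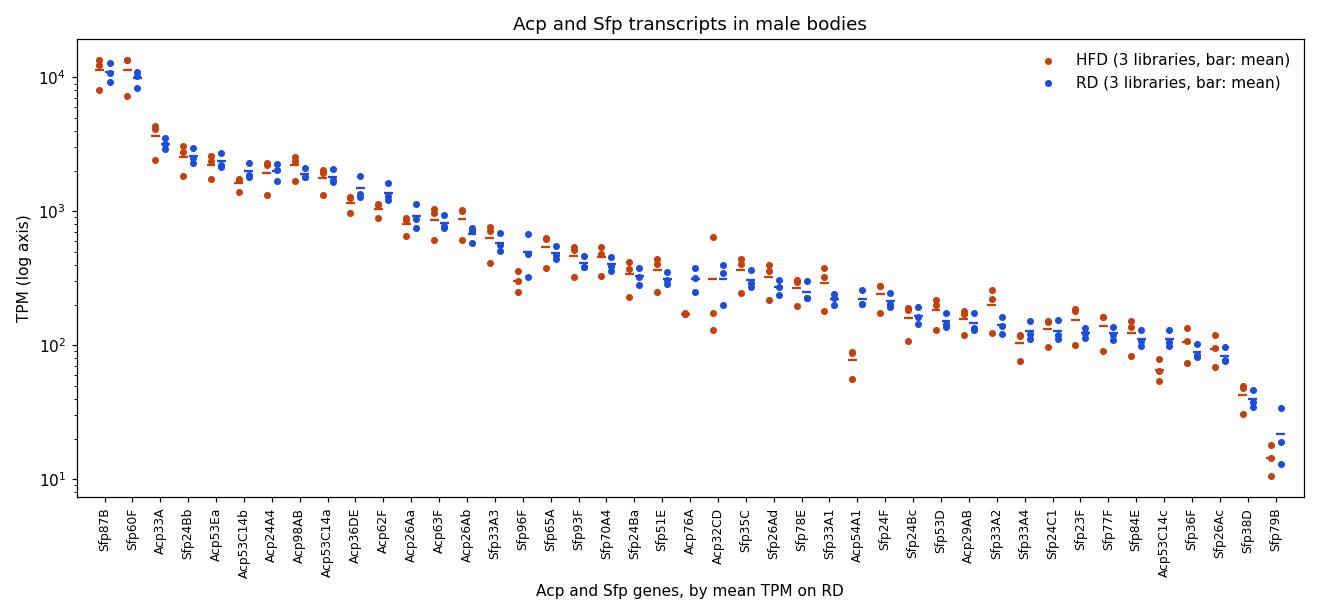
TPM (log axis) of the 43 Acp and Sfp genes above 1 TPM in male bodies, ordered by mean TPM on RD, with a point for each library and a bar for each group mean, HFD left and RD right. Levels run from 10961 TPM for Sfp87B to 21.9 TPM for Sfp79B on RD. All HFD points lie below all RD points for Acp54A1, Acp76A, Acp53C14c, Acp53C14b, Acp36DE and Acp62F, an order not counted over all genes by TPM.

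Neighbouring genes were not equally expressed. In the cluster on 2L at Drgx, Sfp24Bb averaged 2551 ± 630 TPM in HFD bodies and 2585 ± 345 TPM in RD bodies, whereas its neighbour Sfp24Ba averaged 342 ± 100 TPM in HFD bodies and 327 ± 46.9 TPM in RD bodies. Sfp24Bc, the third gene of that cluster, averaged 160 ± 46.04 TPM in HFD bodies and 167 ± 25.04 TPM in RD bodies. Acp53Ea averaged 2232 ± 441 TPM in HFD bodies and 2367 ± 323 TPM in RD bodies, while Acp53C14c of the same cluster averaged 65.7 ± 12.4 TPM in HFD bodies and 112 ± 16.9 TPM in RD bodies (SD, n = 3 each). The lowest gene with a seminal name above 0 was Sfp79B, at 14.3 ± 3.83 TPM in HFD bodies and 21.9 ± 10.8 TPM in RD bodies. The cuticle genes were near 0 in male bodies, Acp1 at 0.37 and 0.97 TPM and Acp65Aa at 0.31 and 0.55 TPM on HFD and RD.

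The first comparison asked how far the genes were restricted to males. In bodies on RD, the 43 genes tested were each higher in males than in females by edgeR's quasi-likelihood test (largest Benjamini-Hochberg adjusted p of the 43 = 4.3e-05), where 49.3% of the 13004 genes tested were called higher in males. On HFD the count was again 43 of 43, against 43.1% of 13018 genes. The low-count filter kept these genes through the male libraries, so the counts are a description; 3 genes were not tested, the cuticle genes Acp1 and Acp65Aa and the unmeasured Acp95EF. The sizes are better given from the raw sums of 3 libraries. Sfp87B had 163433 counts in RD male bodies and 0 in RD female bodies, at least 56838-fold higher against a floor of 3 counts over the female group. Sfp60F had 147605 counts in RD male bodies and 0 in RD female bodies, at least 51333-fold higher. Acp36DE had 162825 counts in RD male bodies and 1 in RD female bodies, a ratio of 169880 with a counting interval of 30490 to 6709920.

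In RD female bodies 26 of the 43 genes had no count in any of the 3 libraries, and in HFD female bodies 27 had none. The 46 genes together had 170 counts in HFD female bodies and 192 in RD female bodies out of 59925535 and 60306156 counts on genes. The genes highest in female bodies by TPM on RD were Sfp78E, Acp63F and Acp65Aa. Sfp78E had 2723, 2216 and 2422 counts in HFD male bodies against 8, 9 and 16 in HFD female bodies, and 3309, 1952 and 2557 counts in RD male bodies against 19, 18 and 21 in RD female bodies. The male to female ratio of Sfp78E on RD was 141 (counting interval 109 to 185), the lowest ratio of a gene with a seminal name apart from the bound of 66.4-fold for the weakly expressed Sfp79B. Acp53C14a was uneven in females, with 2, 12 and 11 counts in HFD female bodies and 21, 1 and 7 in RD female bodies. The cuticle gene Acp65Aa was the exception in direction, with 13 counts over 3 RD male bodies and 29 over 3 RD female bodies, a ratio of 0.468 (counting interval 0.223 to 0.928).

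**Figure D2:**
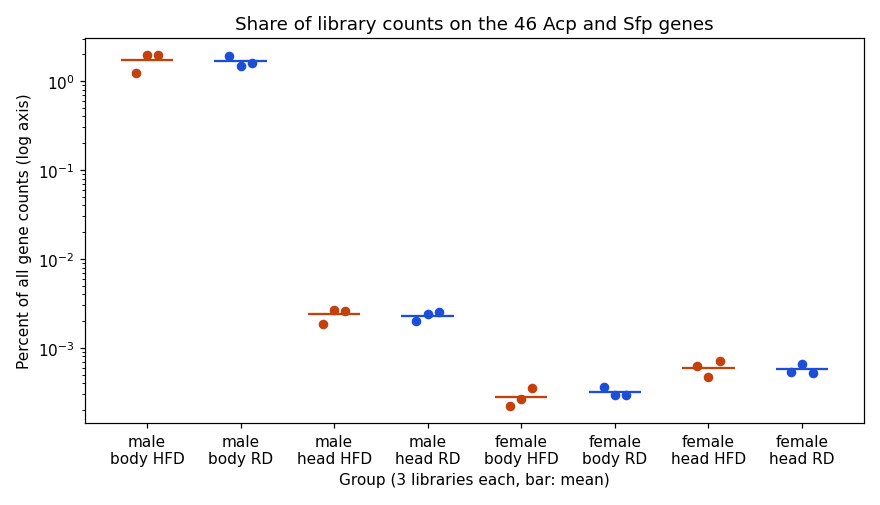
Percent of all gene counts (log axis) on the 46 Acp and Sfp genes in each of the 24 libraries, with 3 points per group, a bar for the group mean, and HFD left of RD in each pair. Male bodies lie between 1.22% and 1.94%, male heads near 0.002%, and female bodies and heads below 0.001%.

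The second comparison set male bodies against male heads. The 43 genes tested were each higher in bodies on RD (edgeR, where 42.8% of 13046 genes tested were called higher in bodies) and on HFD (where 34.0% of 12813 genes were), and here too the filter kept genes through the body libraries. Male heads were not free of these transcripts: the 46 genes had 1124 counts over the HFD heads and 1156 over the RD heads, and 42 and 43 of the 46 had at least 1 count. The share of all gene counts was 0.00238% ± 0.000455 in HFD heads and 0.00230% ± 0.000275 in RD heads (SD, n = 3 each; exact permutation test, two-sided, p = 0.7, smallest possible 0.1).

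Sfp87B and Sfp60F were highest in both male heads and male bodies on each diet, and no correlation of head with body levels was taken. The highest in RD male heads were Sfp87B, Sfp60F and Acp33A, which were also the highest in RD male bodies. In HFD male heads Sfp60F (15.53 TPM) and Sfp87B (15.01 TPM) were again highest, and Sfp78E (7.23 TPM), Acp63F (6.88 TPM) and Acp33A (6.52 TPM) came next. Sfp87B had 34, 31 and 49 counts in HFD male heads and 43, 47 and 68 counts in RD male heads, and Sfp60F had 48, 27 and 49 counts in HFD heads and 33, 38 and 52 counts in RD heads. Neither gene had a count in any female head. Among the genes with at least 10 counts in RD male heads, 22 without a cuticle name, the ratio of bodies to heads had a median of 706. The median over the 43 genes, with bounds where heads were at 0, was 649 on HFD and 755 on RD.

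Sfp78E had the lowest such ratio of the seminal genes with counts in heads. It had 35, 49 and 29 counts in HFD male heads and 27, 42 and 42 in RD male heads, which put bodies over heads at 59.9 on HFD and 60.9 on RD (counting interval 50.5 to 74.1 on RD). Its counts in female heads were as high, at 32, 18 and 49 on HFD and 32, 32 and 40 on RD. Acp63F, a small seminal protein gene, had 20, 26 and 7 counts in HFD male heads and 13, 17 and 16 in RD male heads, and 27, 20 and 25 in HFD female heads and 24, 15 and 15 in RD female heads. For both genes the male and female head libraries overlapped. Part of the exon of Sfp78E lies opposite CG11248, which had 840 to 1192 counts in male heads, and whether reads of that gene reach Sfp78E was not tested.

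Male and female heads on RD could be compared for the 11 genes that passed the filter, and 7 of them were called higher in males (edgeR, adjusted p under 0.05), where 3.41% of 10151 genes tested were. These were Sfp87B, Sfp60F, Acp33A, Acp36DE, Sfp24Bb, Acp53C14b and Acp53Ea. The low-count filter kept these genes through the male heads, so here too the count is a description. Acp36DE had 34, 49 and 52 counts in RD male heads and 1, 3 and 2 in RD female heads, a log2 fold change of 4.52 (SE 0.36, adjusted p = 0.0026). Acp24A4 (log2 fold change 1.69, SE 0.55, adjusted p = 0.103) and Sfp33A3 (1.74, SE 0.53, adjusted p = 0.090) did not pass. Sfp78E (0.20, SE 0.24) and Acp63F (-0.09, SE 0.24) were within their errors of 0. The count of 7 rests on few reads: leaving out 1 library gave 3 to 10, with 4 without male head RD library 3, 3 without female head RD library 2 and 4 without female head RD library 3.

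**Figure D3:**
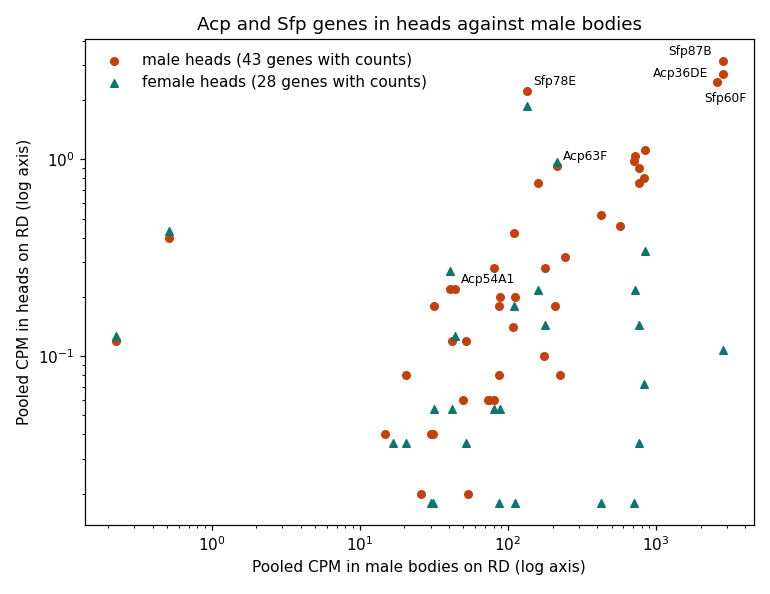
Pooled CPM over 3 RD libraries of each Acp and Sfp gene in male heads (circles) and female heads (triangles) against its pooled CPM in RD male bodies, both axes logarithmic and genes with 0 counts in heads left out. Sfp87B, Acp36DE and Sfp60F lie highest in both male heads and male bodies, while Sfp78E and Acp63F lie at nearly the same height in male and female heads.

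The third comparison was the diet itself in male bodies, where the genes are expressed. Of the 46 genes, 43 were tested, and none passed an adjusted p of 0.05 in edgeR's quasi-likelihood test, which called 0% of 12935 genes. DESeq2 called 1 of the 43, Acp54A1, where it called 0.216% of the same 12935 genes, and limma-voom called none. An unadjusted p under 0.05 was reached by 3 of the 43, where 3.79% of all genes tested reached it: Acp54A1, Acp76A and Acp53C14c. The fold changes of the 43 had a median of 0.20 on the log2 scale, against 0.03 over all genes tested, and 33 were above 0 and 10 below, where 55.0% of all genes were above 0. None of the 33 had every HFD library above every RD library.

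Acp54A1, an accessory gland gene of unknown function, had 17.8, 18.6 and 11.9 CPM in HFD male bodies and 50.9, 39.5 and 38.8 CPM in RD male bodies. Every HFD value lay below every RD value. The log2 fold change was -1.41 (SE 0.21, unadjusted p = 0.00033, edgeR adjusted p = 0.529). DESeq2 gave -1.42 with an adjusted p of 2.8e-05, and over the alternatives tried the value ran from -1.53 to -1.10 and the adjusted p from 2.8e-05 to 1. It stayed below 0 whichever library was left out, at -1.50 (adjusted p = 0.0569) without HFD library 2.

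Acp76A, the serpin, had 137, 144 and 142 CPM in HFD male bodies and 293, 241 and 186 CPM in RD male bodies. The HFD values were close together and all below the RD values, which spread more widely. Its log2 fold change was -0.77 (SE 0.18, unadjusted p = 0.0042, edgeR adjusted p = 0.944). Acp53C14c, the lowest of the cluster on 2R, had 20.4, 30.5 and 25.03 CPM in HFD bodies and 47.3, 38.1 and 34.4 CPM in RD bodies, with a log2 fold change of -0.66 (SE 0.20, unadjusted p = 0.013, edgeR adjusted p = 0.944). By CPM these 3 were also the only genes of the 43 whose HFD libraries all lay below the RD libraries (6.98%, against 4.57% of all genes tested). Over either direction 8.48% of all genes had libraries that did not overlap by CPM. By TPM the HFD libraries also lay below the RD libraries for Acp36DE, Acp62F and Acp53C14b. How many of all genes had this order by TPM was not counted, so it is a description only.

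The other Acp genes with a function given above overlapped between the diets by CPM. Ovulin (Acp26Aa) had 422.5, 584 and 569 CPM in HFD male bodies and 694, 535 and 450.4 CPM in RD male bodies, with a log2 fold change of -0.09 (SE 0.21). The sperm storage gene Acp36DE had 1892, 2549 and 2529 CPM in HFD bodies and 3427, 2506 and 2341 CPM in RD bodies (-0.25, SE 0.21). In both genes the HFD and RD libraries overlapped by CPM, with HFD library 2 lowest and RD library 1 highest. Acp62F, the protease inhibitor, had 287, 369.9 and 374 CPM in HFD bodies and 499.9, 395 and 362 CPM in RD bodies (-0.29, SE 0.18). The overlap of Acp36DE and Acp62F depended on the scaling, since by TPM every HFD value lay below every RD value. Acp36DE had 968, 1269 and 1251 TPM in HFD bodies and 1827, 1352 and 1290 TPM in RD bodies. For Acp62F the values were 896, 1123 and 1128 TPM in HFD bodies and 1625, 1299 and 1218 TPM in RD bodies. The lectin gene Acp29AB had 61.4, 90.2 and 95.2 CPM in HFD bodies and 85.8, 63.9 and 64.6 CPM in RD bodies (0.20, SE 0.21). Its HFD libraries held both the lowest and the highest of the 6 values.

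The coefficient of variation of CPM over 3 libraries had a median of 27.2% in HFD bodies and 15.1% in RD bodies over the 43 genes. On HFD it ran from 2.46% (Acp76A) to 88.0% (Acp32CD), and on RD from 9.48% (Sfp33A1) to 50.9% (Sfp79B, the weakest of the genes). Whether the spread differed between diets was not tested.

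The symbol families can be set side by side. Of the 16 Acp genes tested 9 were above 0 and 7 below, with a median of 0.05, and of the 27 Sfp genes 24 were above 0 and 3 below, with a median of 0.27; no difference between these families was tested. The highest value belonged to Sfp33A2, with 27.9, 51.2 and 60.4 CPM in HFD bodies and 34.9, 26.04 and 29.3 CPM in RD bodies and a log2 fold change of 0.62 (SE 0.29, adjusted p = 0.944). Its neighbours in the cluster were at 0.21 (Sfp33A3) and -0.19 (Sfp33A4). Acp26Ab stood at 0.48 (SE 0.24) and ovulin, 21 bases away, at -0.09 (SE 0.21). The 12 genes highest in RD male bodies ranged from -0.29 (Acp62F) to 0.33 (Acp98AB), none with an unadjusted p under 0.05.

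**Figure D4:**
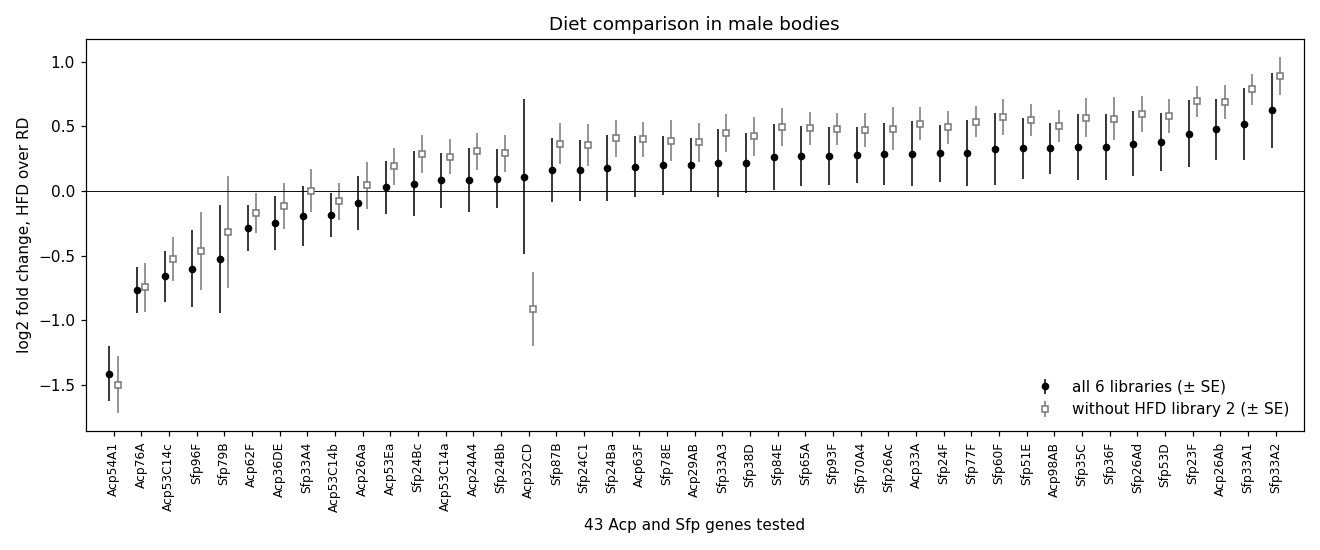
log2 fold change, HFD over RD, in male bodies for the 43 genes tested, with all 6 libraries (filled circles) and without HFD library 2 (open squares), bars giving the SE of edgeR's fit. Acp54A1 lies lowest at -1.41, 33 genes lie above 0, and without HFD library 2 most points move up while Acp32CD moves down to -0.91.

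HFD library 2 set much of the spread among the HFD bodies. Relative to the mean of HFD libraries 3 and 4, it was lower for 41 of the 43 genes, by a median of -0.72 on the log2 scale. Acp54A1 (0.22) and Acp32CD (2.03) were the exceptions. How many of all genes tested were lower in that library was not counted, so the 41 of 43 is a description only. The summed level of the 44 genes without the cuticle genes was 12548 CPM in that library and 19780 and 19556 CPM in HFD libraries 3 and 4, against 19121, 14548 and 15240 CPM in the RD libraries. Other lists moved too: 7 midgut genes summed to 5616, 770.3 and 524 CPM in HFD libraries 2, 3 and 4 and to 948, 2747 and 1626 CPM in RD libraries 1, 2 and 3, and 5 flight muscle genes to 3260, 1630 and 1512 CPM in HFD libraries and 2091, 2550 and 2349 CPM in RD libraries. The testis sum was 13559 CPM in HFD library 2, 11657 and 12426 CPM in the other HFD libraries, and 11603, 10578 and 11348 CPM in the RD libraries. Their part in the values of the Acp and Sfp genes was not tested.

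Without HFD library 2 the median of the 43 genes was 0.41, with 34 above 0 and 9 below. The HFD group was then libraries 3 and 4, the replicate pair with the lowest chi-square per gene (6.58). An unadjusted p under 0.05 was then reached by 29 of the 43 (67.4%), 25 above 0 and 4 below, where 34.9% of the 12956 genes tested reached it. No gene passed the adjusted threshold (edgeR, 0 of 43; smallest adjusted p = 0.0569). The share of all counts would be 1.94% in 2 HFD bodies and 1.66% in 3 RD bodies, a difference of 0.281 percentage points. When each library was instead scaled to the summed counts of the 46 genes, a choice made after the values were seen, the median was 0.13, and 6 of the 43 reached an unadjusted p under 0.05, where 2.52% of all genes tested did: Acp54A1, Acp53C14c, Acp76A and Sfp96F below 0, Acp26Ab and Sfp33A2 above 0.

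Acp32CD, which was singled out after its values were seen, varied most among the 6 male body libraries, by 4.80-fold, against a median of 1.81-fold over the 43 genes. It had 379, 78.9 and 107 CPM in HFD libraries 2, 3 and 4 and 113, 194 and 218 CPM in RD libraries 1, 2 and 3. HFD library 2 was thus highest and the other HFD libraries lowest, so the diets overlapped. The log2 fold change was 0.11 (SE 0.60) with all libraries and -0.91 without HFD library 2. Of the 19 genes tested in the sex peptide network and accessory gland lists, 6 were highest in HFD library 2. The share of all genes tested that were highest there was not taken, so this count is a description only. The 6 were CG17575, hdly, lectin-46Ca, lectin-46Cb, msopa and Mst57Da. Values of 4 of them are given here, chosen after they were seen: lectin-46Ca had 229, 110 and 130 CPM in HFD bodies and 119, 163 and 177 CPM in RD bodies, and lectin-46Cb had 169, 37.3 and 70.9 CPM in HFD bodies and 65.6, 95.3 and 103 CPM in RD bodies. CG17575, which like the lectins acts in the persistence of sex peptide on sperm, had 250, 46.6 and 51.8 CPM in HFD bodies and 62.8, 110 and 126 CPM in RD bodies. For msopa the values were 121, 24.03 and 23.8 CPM in HFD bodies and 46.5, 41.7 and 48.6 CPM in RD bodies. The exact order of the 6 libraries in Acp32CD was shared by CG17575, by no other gene among the 46, and by 4.92% of all genes tested, PebIII of the ejaculatory bulb among them.

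**Figure D5:**
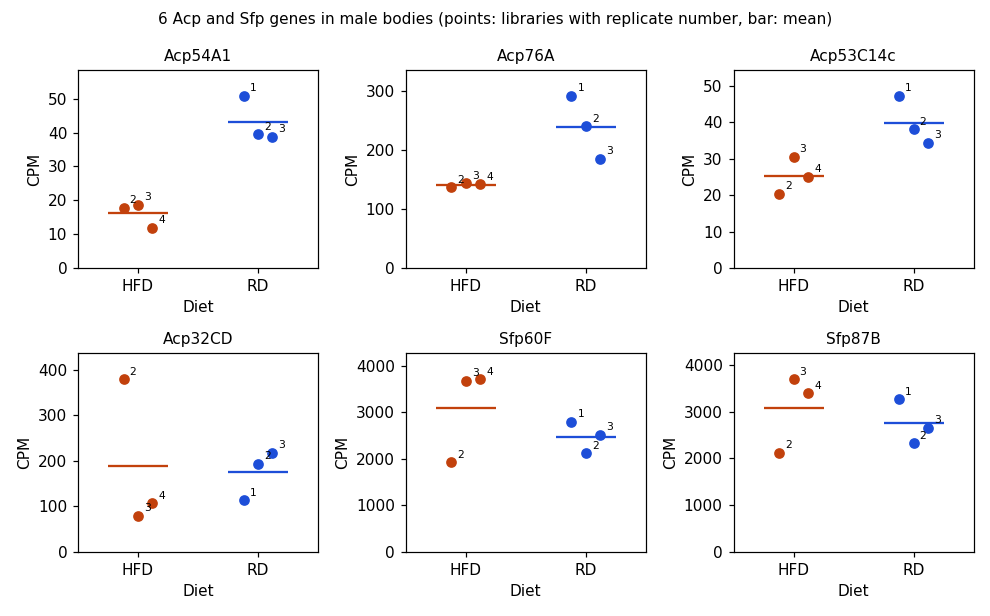
CPM in male bodies, from 0, of 6 Acp and Sfp genes, with a point for each library marked by its replicate number, a bar for the group mean, and HFD left of RD. Acp54A1, Acp76A and Acp53C14c show HFD points below all RD points, Acp32CD shows HFD library 2 at 379 CPM and the other HFD libraries at 78.9 and 107 CPM, and Sfp60F and Sfp87B show HFD library 2 lowest.

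Other genes of these organs or of the sex peptide network were taken as lists. The network list held 10 genes, most of which act in bringing sex peptide to sperm. The remaining lists held 9 other accessory gland genes tested, the 3 gland regulators prd, dve and Abd-B, and 7 ejaculatory duct and bulb genes. None of these genes was called between diets in male bodies (edgeR). At an unadjusted p under 0.05 there were 0, 2, 0 and 0, where 3.79% of the 12935 genes tested reached it. Their median log2 fold changes were 0.09, -0.06, 0.04 and -0.05, against 0.03 over all genes tested. The 2 were Mst57Da, a male-specific gland transcript, at 0.49 (SE 0.17) with 337, 263 and 270 CPM in HFD bodies and 246, 179 and 195 CPM in RD bodies, and Spn28F, a serpin, at -0.64 (SE 0.18) with 255, 313 and 297 CPM in HFD bodies and 538, 445 and 368 CPM in RD bodies. In each the HFD and RD libraries did not overlap, as was so for 8.48% of all genes tested.

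Sex peptide (SP), the highest of its list, had 447, 759 and 828 CPM in HFD male bodies and 540, 451 and 487 CPM in RD male bodies. The HFD range enclosed the RD range, with HFD library 2 lowest. Its log2 fold change was 0.46 (SE 0.24, edgeR adjusted p = 0.944). In the same bodies on RD, Mst57Db averaged 11342 ± 1833 TPM and PebII, the ejaculatory bulb protein gene, 10596 ± 1317 TPM (SD, n = 3), levels near that of Sfp87B. Across sexes on RD the 10, 9, 3 and 7 genes of these lists were each called higher in male than in female bodies, where 49.3% of all genes tested were, and on HFD 9, 9, 2 and 7 were, where 43.1% were. The filter kept most of these genes through the male libraries, so the counts are a description. On RD the difference was small for hdly (log2 fold change 0.43, SE 0.098) and dve (0.47, SE 0.15). On RD SPR, the receptor of sex peptide, was lower in male bodies (log2 fold change -1.55, SE 0.21, edgeR adjusted p = 8.0e-05).

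The bodies over heads comparison on RD separated a few genes of these lists. SP was higher in male bodies by 9.65 on the log2 scale (SE 0.33) and prd, a transcription factor needed for gland development, by 10.16 (SE 0.44). The exceptions were dve (-0.41, SE 0.13) and PebIII (-1.26, SE 0.33), called lower in bodies, and hdly (-0.17, SE 0.12), not called.

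Diet was also compared where the genes are barely present. In male heads 12 of the 46 were tested and none was called (edgeR, 0% of 10175 genes; DESeq2 and limma-voom also none of the 12), and none had an unadjusted p under 0.05, where 1.42% of genes tested did. Their fold changes ran from -0.29 (Acp24A4) to 0.63 (Sfp24Bb). In female bodies 3 were tested (Acp53C14a, Acp65Aa and Sfp78E) and in female heads 3 (Acp1, Acp63F and Sfp78E), with none called by any of the 3 tools (edgeR called 0% of 10282 and 0.00983% of 10175 genes). No unadjusted p of these was under 0.05 in edgeR, where 3.48% of genes tested in female bodies and 2.76% in female heads had one. Most of the 46 genes did not pass the filter in these libraries and were not tested there.

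The tissue by diet interaction in males was tested for 43 genes and the sex by diet interaction in bodies for 44, and no gene passed in either (edgeR, 0% of 13308 and 0% of 13425 genes; DESeq2 and limma-voom also none of the 43 and 44). An unadjusted p under 0.05 was reached by 3 genes for tissue by diet, where 3.14% of genes tested reached it, and by 1 for sex by diet, where 3.18% did. The 3 were Acp54A1 (-2.01 on the log2 scale), Sfp53D (1.83) and Sfp84E (-3.36), and the 1 was Sfp78E (1.03). The 3 rest on few head counts. Acp54A1 had 2, 3 and 8 counts in HFD male heads and 5, 1 and 5 in RD male heads. For Sfp53D these were 2, 1 and 1 on HFD and 2, 8 and 4 on RD. Sfp84E had 3, 24 and 1 counts in HFD male heads and 1, 0 and 2 in RD male heads. Os-C, which lies opposite its exon, had 84, 137 and 42 counts in HFD male heads and 2, 1 and 0 in RD male heads, and its part in the value of Sfp84E was not tested.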

How the data were processed

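RNA was sequenced from 24 libraries of w1118 flies, 3 for each sex, tissue (heads or bodies) and diet. The authors deposited raw counts per gene, whole numbers that were not normalized, with gene lengths, in 1 table for males and 1 for females. By the paper's methods the libraries were made with a TruSeq Stranded mRNA kit and aligned with TopHat at default settings. The submitters' processing notes name featureCounts and dm6, and neither the strand setting nor the rule for ambiguous reads is given in the sources used here. The paper's methods state 15 bodies per pool and 7 days on the diet, whereas the labels give 10 bodies and flies of 5 to 7 days. Positions come from Ensembl's annotation of the same build, and 44 of 46 gene lengths equalled those in the tables.

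Each comparison was fitted over all genes of its 2 groups (4 groups for interactions) with edgeR 4.0.16 in R 4.3.3 (filterByExpr at its defaults, min.count 10 and min.total.count 15, TMM, glmQLFit and glmQLFTest), with Benjamini-Hochberg adjustment over all genes tested and a threshold of 0.05. CPM were scaled to the library size times its TMM factor, and TPM use the tables' lengths. Pooled ratios sum 3 libraries and have 95% exact counting intervals, which, like those of shares, cover counting error only. Alternatives were DESeq2 1.42.0, limma-voom (limma 3.58.1), RLE size factors, total counts only, the total of genes that are not members of the set, 2 other filters, a replicate block, a joint fit of all 12 libraries of the sex or tissue (24 for interactions), each library left out in turn and, added after seeing the data, the total of the 46 genes as library size. The scripts were tested on simulated data.

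Deviations from the group means were correlated between same-numbered HFD male bodies and heads (0.70, 0.53 and 0.22). Between same-numbered RD male bodies and heads the correlations were negative (-0.40, -0.22 and -0.04). Samples of unlike number were not compared, so whether the numbers pair samples was not settled.

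Genes were named by a rule: the 12 highest in RD male bodies by TPM, the 3 highest in RD male heads and in RD female bodies, those with an unadjusted p under 0.05 for diet in male bodies, any called for diet, and the cuticle genes. Others were named after their values were seen, for their neighbours, overlaps or spread. The genes and lists were chosen with earlier results of these data known.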

Additional observations from a re-analysis of the deposited data

How the results depend on the processing

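Depth limits heads and females, where 20 (HFD male heads) to 42 (RD female bodies) of the 46 genes have under 10 counts over 3 libraries, and the 3 libraries per group limit male bodies, where HFD library 2 stands apart. For diet in male bodies the count of genes called was 1 with DESeq2 and 0 with every other alternative, leaving out each library included (0 to 0), and the median log2 fold change ran from 0.09 to 0.41 on leaving out 1 library. The difference in share ran from -0.078 to 0.281 percentage points on leaving out 1 library. A filter of at least 10 counts in every library left few genes to test: 1 called higher in male than female bodies on RD, 0 in male than female heads, and 11 on RD and 10 on HFD in male bodies over heads. With at least 1 count, 11 were called higher in male than female heads, and leaving out 1 library there gave 3 to 10. The filter of at least 10 counts in every library left no gene to test for diet in female bodies, for sex in HFD bodies or for sex by diet.

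In male over female bodies on RD, leaving out 1 library gave 43 to 44 genes called higher. Leaving out 1 library gave 43 to 43 genes for male over female bodies on HFD and for male bodies over heads on both diets, and 0 to 0 for diet in the other sexes and tissues and for the interactions.

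With the replicate number as a block, 0 genes were called for diet in male bodies (16 of all 12935), with a median of 0.17, and 9 in place of 7 were called higher in male than female heads. For male bodies over heads on HFD the count stayed at 43, and the block moved no other count of called genes among the 46.

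Among the 15 genes whose diet fold change in male bodies was followed, values near 0 changed sign. Acp24A4 was -0.017 when scaled to the 46 genes and -0.0635 to 0.31 on leaving out 1 library. Acp26Aa was 0.0172 with the block and -0.23 to 0.0708 on leaving out 1 library. Acp53C14a was -0.0039 when scaled to the 46 genes and -0.0348 to 0.26 on leaving out 1 library. Acp53Ea was -0.023 with total counts only, -0.0219 with the total of other genes, -0.0507 when scaled to the 46 genes and -0.0926 to 0.19 on leaving out 1 library. Sfp24Bb was -0.0598 to 0.29 on leaving out 1 library. The cause was not tested.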
